A study of Mus musculus with 2 samples.

Results

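The MHC class II genes and their master regulator Ciita were followed through the white blood cells of mouse melanomas. They were 10 of the 32285 genes in the files, found by symbol: H2-Aa, H2-Ab1, H2-Eb1, Cd74, H2-DMa, H2-DMb1, H2-DMb2, H2-Oa, H2-Ob and Ciita, and all 10 were found. Viable cells carrying CD45, a surface protein of blood cells other than red cells, had been sorted on day 14 from tumours grown from B16-F10, a melanoma line of C57BL/6 origin. The tumours were either FDPS-knockout, lacking farnesyl diphosphate synthase of the mevalonate pathway in the tumour cells, or WT, and 3 tumours of each kind gave 1 droplet single-cell library per group. The labels do not give the strain of the host mice, how the knockout was made, whether it was 1 clone, or which cell came from which tumour. Each comparison is thus of 1 library with 1 library, with no replicate and no test, and intervals are 95% counting intervals only (exact Poisson for summed molecules, exact Clopper-Pearson for shares).

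MHC class II molecules carry peptides from the endosomes of antigen-presenting cells to the surface, where CD4 T cells read them. H2-Aa and H2-Ab1 encode the alpha and beta chains of I-A, and H2-Eb1 the beta chain of I-E. The invariant chain, Cd74, holds the groove closed on the way to the endosome, and there H2-DM (H2-DMa with H2-DMb1 or H2-DMb2) swaps its remnant for peptide. H2-DO (H2-Oa and H2-Ob), best known from B cells, restrains H2-DM. Ciita is a coactivator that does not bind DNA itself. It joins RFX, CREB and NF-Y proteins on the conserved X and Y boxes of class II promoters, and its own transcription starts from different promoters in dendritic cells (DCs), B cells and interferon-gamma-treated cells.

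The genes for both I-A chains, the I-E beta chain, H2-DM and H2-DO lie together on chromosome 17, whereas Cd74 and Ciita lie on other chromosomes, Ciita on chromosome 16 (positions 10480059 to 10528418, plus strand, GRCm38). The promoters below show how alike the members are at the sites that Ciita works from. RefSeq promoter sequences were matched for 7 of the 10 members, and the other 3 are H2-Ab1, Cd74 and Ciita. The 6 stretches shown are on GRCm38.p6, run 5′ to 3′ on the gene's own strand and are aligned on TGATTGG, the inverted CCAAT core of the Y box. Capitals mark TGATTGG, the letters AACNNATG that occur within the X box, and TGACGTCA, the full site of CREB proteins.

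H2-Aa, chr17:34287847-34287928, minus strand: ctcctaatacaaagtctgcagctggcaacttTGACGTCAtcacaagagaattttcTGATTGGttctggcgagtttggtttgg
H2-Eb1, chr17:34305751-34305832, plus strand: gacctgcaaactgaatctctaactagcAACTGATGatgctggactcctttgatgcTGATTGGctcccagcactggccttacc
H2-DMb1, chr17:34153073-34153154, plus strand: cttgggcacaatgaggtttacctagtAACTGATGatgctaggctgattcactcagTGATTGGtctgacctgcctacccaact
H2-DMb2, chr17:34145102-34145183, plus strand: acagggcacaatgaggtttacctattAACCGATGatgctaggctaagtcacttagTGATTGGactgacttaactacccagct
H2-Oa, chr17:34092279-34092360, plus strand: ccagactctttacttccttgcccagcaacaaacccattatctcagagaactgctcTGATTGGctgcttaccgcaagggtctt
H2-Ob, chr17:34238791-34238872, plus strand: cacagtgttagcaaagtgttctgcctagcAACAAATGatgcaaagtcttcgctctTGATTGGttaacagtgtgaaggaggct

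TGATTGG was found in 6 of the 7 members' promoters, all but H2-DMa, against 7.82% of 32851 RefSeq promoters of the same length on either strand. AACNNATG stood before it in H2-Eb1, H2-DMb1, H2-DMb2 and H2-Ob, with 26 to 29 bases from start to start. Only 17 of all promoters (0.0517%) had AACNNATG at most 60 bases before TGATTGG on the gene's strand. H2-Aa had TGACGTCA in that place, a palindrome found in 1.79% of promoters, and H2-Oa had neither. AACNNATG alone was in 8.86% of promoters on either strand, and none of the 3 motifs overlapped another in the stretches shown. The motifs were chosen after the sequences were read. H2-DMb1 and H2-DMb2 shared most of their stretch, and their transcripts were 94.7% identical over their aligned length. Over the last 300 bases the identity was 79.4% and the longest identical run 23 bases, so reads near the transcripts' ends differ between them, but a read in an identical stretch could be assigned to neither or to the wrong gene.

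The files held 127186298 unique molecules (UMIs) in the FDPS-knockout library and 208936136 in the WT library, with medians of 10732.5 and 12252 UMIs per barcode. After filters, 8062 FDPS-knockout and 8595 WT cells were kept, and 14 kept cells shared a barcode sequence between the libraries. Levels are given in CPM, the UMIs of a class and library scaled to a total of 1000000. Fdps stood at 89.3 CPM in the 18 melanoma cells of the FDPS-knockout library and at 399 CPM in 470 melanoma cells of the WT library. It was also lower in host cells, such as CD8 T cells with 27.1 CPM in the FDPS-knockout library and 78.3 CPM in the WT library. The labels do not say whether the counted transcript end lies in the edited stretch of Fdps. Cells were sorted into classes by a gate on marker genes that holds none of the 10 members. Each of the 7 antigen-presenting classes described here had 3 to 8 of its own markers and none of another class among its 10 leading genes. The gate picked cells by these same markers, so this describes the classes and is no independent check of them. T cells and melanoma cells were not described in this way.

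The members made up 8404 CPM of all UMIs in the FDPS-knockout library and 6236 CPM in the WT library, but different cells supplied them. Macrophages (515 FDPS-knockout and 2768 WT cells) held 15.8% of the member UMIs of the FDPS-knockout library and 43.4% of those of the WT library. Conventional type 2 DCs (cDC2, 441 and 152 cells) held 26.9% and 10.7%, in the same order. Type 1 DCs (cDC1, 302 FDPS-knockout and 163 WT cells) held 16.7% in the FDPS-knockout library and 10.7% in the WT library. Monocytes (302 and 927 cells) held 5.81% and 10.1%, again FDPS-knockout before WT. Mature DCs, a Ccr7 and Fscn1 state (125 FDPS-knockout and 162 WT cells), held 3.50% and 3.34%, and B cells (130 and 144) 1.75% and 1.98%. Ungated cells were 15.3% of FDPS-knockout and 14.1% of WT cells, and they held 25.3% and 15.6% of the member UMIs.

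CD8 T cells, which in mice do not make class II molecules, served as the background for the summed members. They are not a plain background for each member. H2-Oa was at 5.07 CPM in WT CD8 T cells and 0.626 CPM in WT macrophages, and at 1.96 and 2.71 CPM in those of the FDPS-knockout library. The summed members were at 233 CPM in FDPS-knockout and 216 CPM in WT CD8 T cells. Of cells thinned to 2000 UMIs, 0.183% of FDPS-knockout and 0.218% of WT CD8 T cells had 10 or more member UMIs. H2-Aa had a UMI in 8.56% of such FDPS-knockout and 6.21% of WT CD8 T cells, and Ciita in 0.458% and 0.490%. Median depths before thinning were 12330 UMIs in FDPS-knockout and 20793 in WT CD8 T cells.

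**Figure D1:**
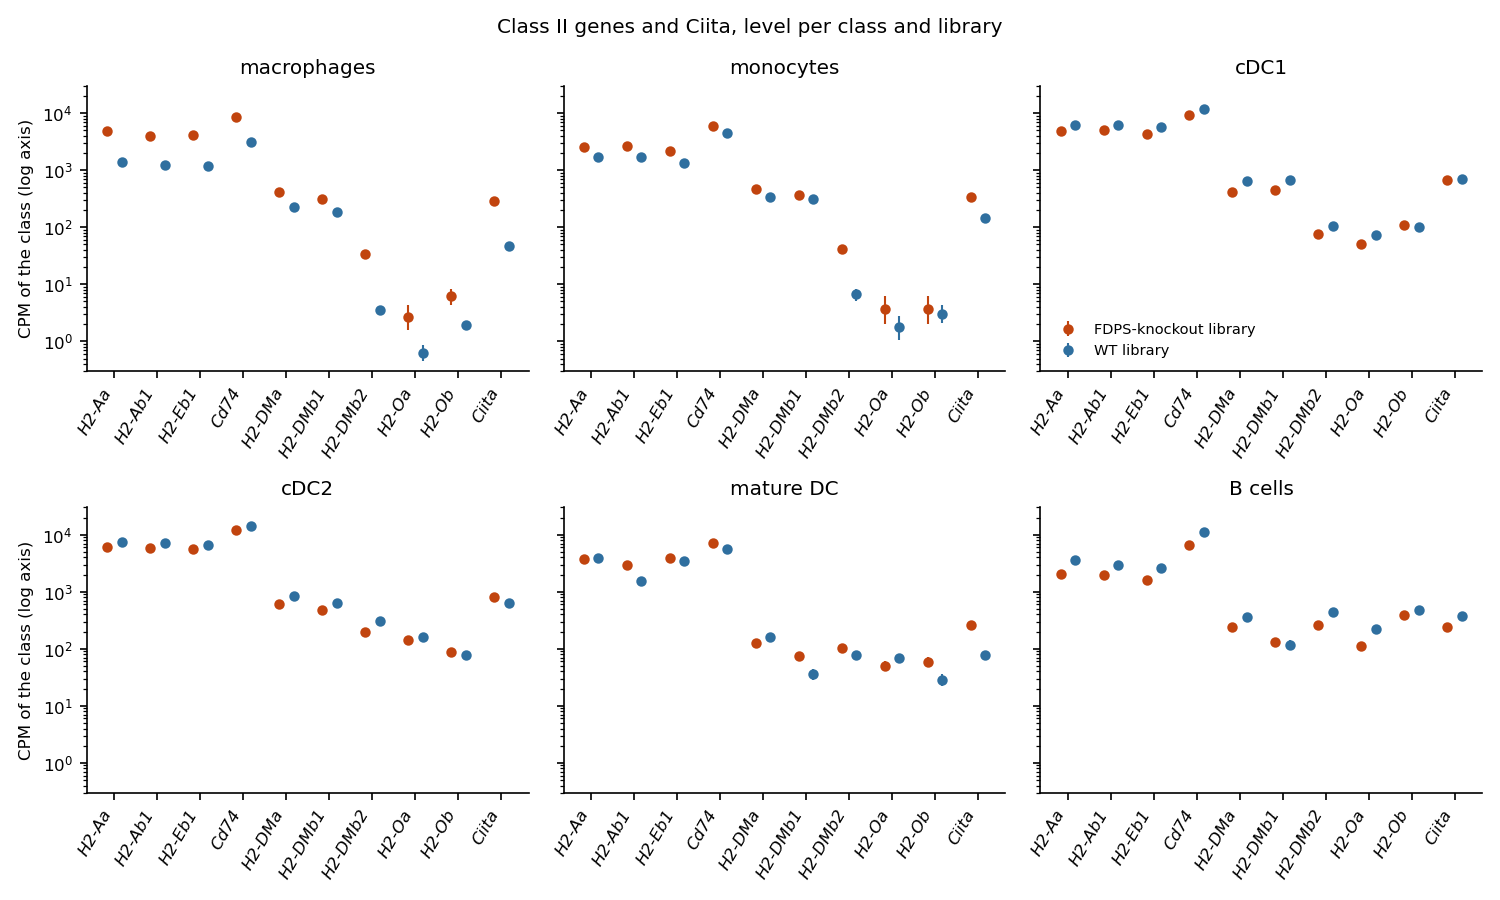
Level of each of the 10 genes in CPM of the class, on a log axis, for 6 classes, with the FDPS-knockout library to the left of the WT library and bars for 95% Poisson intervals. In macrophages all points of the FDPS-knockout library lie above those of the WT library, as with H2-Aa at 4858 and 1402 CPM, while in cDC1 and cDC2 the points of most genes lie close together.

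Class II transcripts were more abundant in macrophages of the FDPS-knockout library, from the peptide-binding chains to Ciita. H2-Aa was at 4858 CPM (4805 to 4911) in FDPS-knockout and 1402 CPM (1392 to 1411) in WT macrophages. Its partner H2-Ab1 was at 4053 and 1256 CPM, and H2-Eb1 at 4214 and 1176 CPM, FDPS-knockout before WT. The log2 ratios of CPM plus 5, FDPS-knockout over WT, were 1.79 for H2-Aa, 1.69 for H2-Ab1 and 1.84 for H2-Eb1. These 3 chains thus differed between the libraries by nearly the same factor. Cd74 was at 8478 CPM in FDPS-knockout and 3150 CPM in WT macrophages, a log2 ratio of 1.43.

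Ciita, the coactivator of the class II promoters, was also higher in FDPS-knockout macrophages. It was at 290.2 CPM (277 to 303) in FDPS-knockout and 47.9 CPM (46.2 to 49.6) in WT macrophages, a log2 ratio of 2.48 (2.40 to 2.56). It had a UMI in 71.8% of FDPS-knockout and 30.9% of WT macrophages. After thinning to 2000 UMIs per cell these shares were 40.2% and 8.13%, far over the CD8 T cell values in both libraries. The 4 genes of the peptide-binding and invariant chains had 74.4 UMIs per Ciita UMI in FDPS-knockout and 146 in WT macrophages. A large part of Ciita is overlapped on the other strand by Dexi (25888 bases), which was at 19.5 CPM in FDPS-knockout and 10.4 CPM in WT macrophages. The labels and headers do not say whether the counting used strand.

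The chains of the peptide editor had unequal log2 ratios. H2-DMa was at 421 CPM in FDPS-knockout and 230 CPM in WT macrophages (log2 ratio 0.86), and H2-DMb1 at 317 and 187 CPM (0.74). H2-DMb2 was at 34.1 CPM in FDPS-knockout and 3.56 CPM in WT macrophages (2.19). H2-Oa (2.71 and 0.626 CPM) and H2-Ob (6.17 and 1.91 CPM) were under the 10 CPM set for a comparison and are given as levels only. All 8 members over that level were past 1.5-fold higher in FDPS-knockout macrophages and 0 were past 1.5-fold lower. Of the 8397 genes compared, 17.2% were past 1.5-fold higher and 16.7% lower. The median log2 ratio was 1.74 over the 8 members and 0.02 over all genes compared. With Leiden clusters in place of the gate the count was 5, since H2-DMa (0.28), H2-DMb1 (0.32) and H2-DMb2 (0.44) came within 1.5-fold.

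Several measured properties of the cells moved with this difference. FDPS-knockout macrophages had a median of 10436 UMIs per cell and WT macrophages 19826. Per cell and without scaling, H2-Aa had 62.7 UMIs in FDPS-knockout and 31.5 in WT macrophages, and Ciita 3.75 and 1.08. On that scale the median log2 ratio of all genes was -0.66 and 7.13% of the calls were higher, against 50.9% on the CPM scale, and H2-DMb1 had a log2 ratio of -0.041. The ratio of a gene also went with the length of the genome it spans. With genes split by span into 4 equal groups, the group of shortest genes had a median log2 ratio of -0.36 in macrophages and that of the longest genes 0.42. Among the 8 members compared, 6 were in the group of shortest genes, and Ciita, at 48360 bases, was in a group with a median of 0.08. The shortest genes also had the lowest group median in each other class compared. It was -0.15 in monocytes, -0.26 in cDC1 and cDC2, -0.28 in mature DCs and -0.21 in B cells. The part of span and depth in the members' ratios was not tested. Monocyte markers summed to 2567 CPM in FDPS-knockout and 1116 CPM in WT macrophages, with 0 of 10 at 0 in either library. The cDC2 markers summed to 1139 and 635 CPM with 0 of 9 at 0, and their part in the result was not tested.

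**Figure D2:**
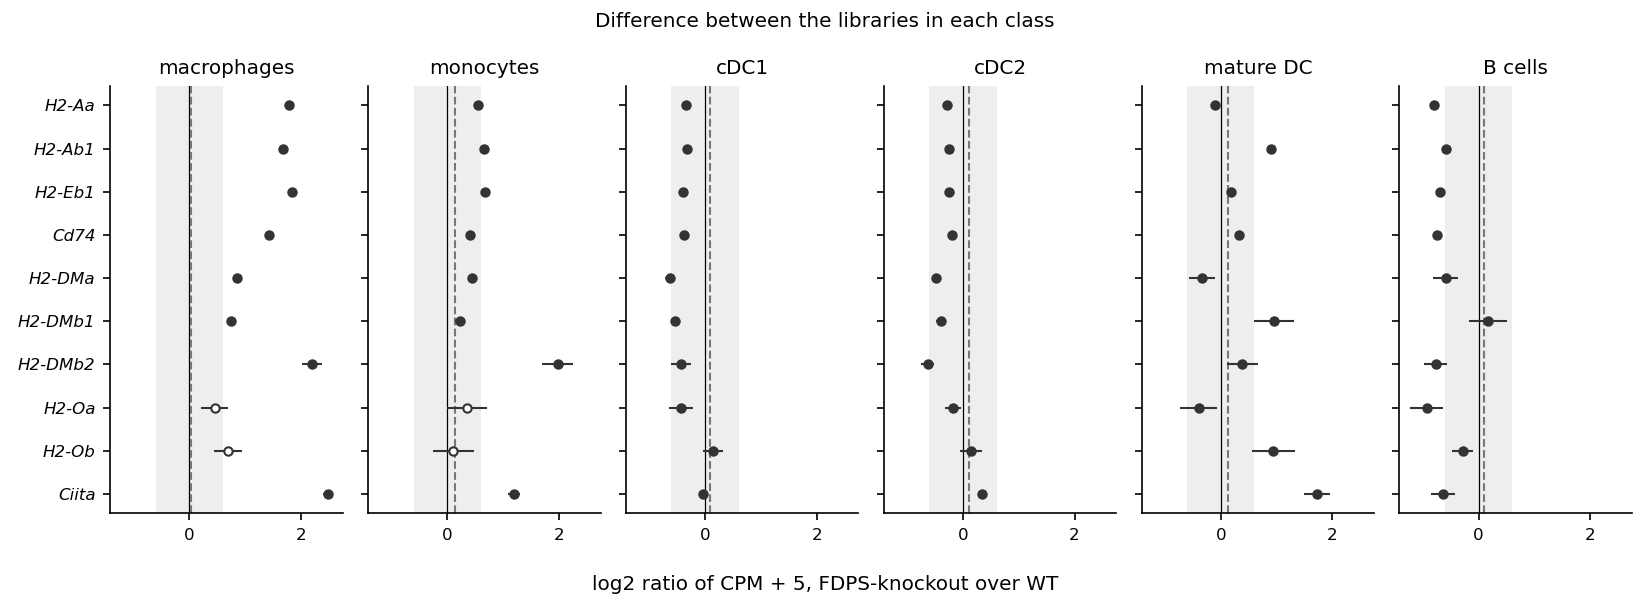
Log2 ratio of CPM plus 5, FDPS-knockout over WT, for each gene (rows) in 6 classes (panels), with bars for 95% counting intervals. The grey band is the range within 1.5-fold, the dashed line the median of all genes compared, and open points are genes under 10 CPM; macrophages have all 8 filled points right of the band and B cells 7 of 10 left of it.

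Macrophages of the libraries were spread differently over states, so the members were also read within states. Of the gated macrophages, 41.9% of FDPS-knockout (216 cells) and 0.145% of WT cells (4 cells) had at least 3 UMIs of Retnla per 10000, a gene of alternatively activated macrophages. Among macrophages under that cut, H2-Aa was at 5380 CPM in the FDPS-knockout library (299 cells) and 1397 CPM in the WT library (2764 cells), and Ciita at 361 and 47.8 CPM. The FDPS-knockout macrophages over the cut had less of each, with 4105 CPM of H2-Aa and 188 CPM of Ciita. For H2-Aa and Ciita the difference between libraries was thus no smaller without the Retnla cells. It was smaller for H2-DMa (368 CPM in FDPS-knockout and 229 in WT macrophages under the cut) and for H2-DMb2 (15.3 and 3.47 CPM). Of 13 genes of macrophage states, 6 were past 1.5-fold higher in FDPS-knockout macrophages (Retnla, Cd209f, Cd163, Lyve1, Il1b and Ptgs2) and 5 lower (Spp1, Gpnmb, Arg1, Top2a and Mki67), so the mix of states differed at large. The members were higher in the FDPS-knockout library also among the cells with 3 or more Spp1 or Arg1 UMIs per 10000, with 19331 CPM in FDPS-knockout (43 cells) and 6926 CPM in WT macrophages (1028 cells). Among macrophages with at least 3 UMIs per 10000 of Ccr2, a receptor of recently recruited monocytes, the summed members were at 24946 CPM in FDPS-knockout (246 cells) and 14843 CPM in WT (411 cells). Among those under it they were at 20293 CPM in FDPS-knockout and 6468 CPM in WT. Ccr2 cells were 47.8% of FDPS-knockout and 14.8% of WT macrophages. The difference between libraries was smaller among the Ccr2 cells. The members' median log2 ratio was 0.83 there, 1.70 under the Ccr2 cut and 1.74 in all gated macrophages. In the Ccr2 cells Ciita was at 316 CPM in FDPS-knockout and 125 CPM in WT macrophages, and H2-Aa at 5087 and 2744 CPM. The part of the mix of states in the result was not tested.

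Clusters made without the 10 genes gave the same direction. They are called by number, and different clusters held most of the gate in each library. Cluster 19, led by Ednrb, Cbr2, Gas6, Lyve1 and Cd163, held 46.6% of the FDPS-knockout gate (240 cells) and 4.77% of the WT gate (132 cells). Within it H2-Aa was at 4969 CPM in FDPS-knockout and 865 CPM in WT cells, and Ciita at 345 and 37.2 CPM. Cluster 29, led by Prune2, Negr1 and Ms4a7, held 27 FDPS-knockout and 652 WT cells of the gate. H2-Aa there was at 4022 CPM in FDPS-knockout and 1520 CPM in WT cells, and Ciita at 173 and 64.1 CPM. These were the 2 clusters with at least 20 gated macrophages from each library. Over all clusters with 20 or more such cells, H2-Aa was at 3682 to 5921 CPM in the 5 of the FDPS-knockout library. It was at 865 to 1917 CPM in the 7 of the WT library. The clusters of a library are not replicates, and how many of all genes separate these clusters was not counted. Clusters 17 and 4 held 127 and 61 FDPS-knockout macrophages and under 20 WT ones, so no difference could be read in them.

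**Figure D3:**
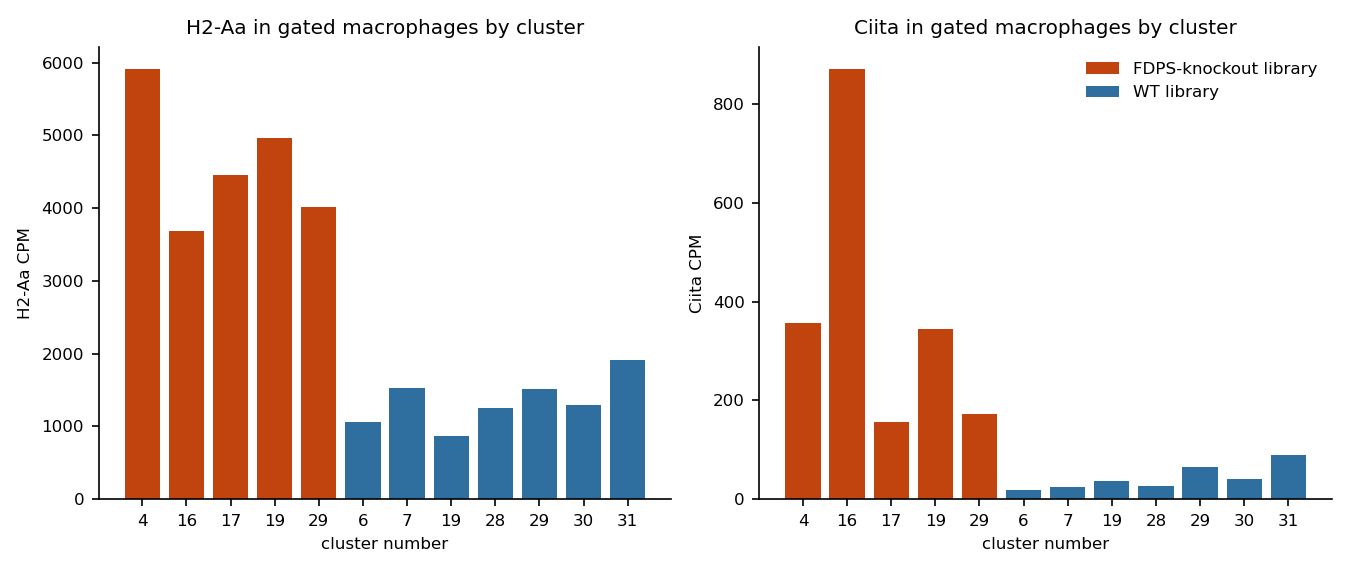
H2-Aa (left) and Ciita (right) in CPM of gated macrophages by cluster number, for clusters with at least 20 gated cells of a library, with the 5 FDPS-knockout bars left of the 7 WT bars. The lowest FDPS-knockout bar of H2-Aa (3682 CPM, cluster 16) is above the highest WT bar (1917 CPM, cluster 31), but bars of a library are not replicates.

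In single macrophages the distribution as a whole was shifted. With each cell thinned to 2000 UMIs, the median cell had 39 member UMIs in the FDPS-knockout library (493 cells, 22 shallower ones left out) and 9 in the WT library (2644 cells, 124 left out). The middle 50% of cells ran from 23 to 57 UMIs in the FDPS-knockout library and from 3 to 20 in the WT library. Cells with 10 or more were 93.1% (90.5 to 95.2) of FDPS-knockout and 47.6% (45.7 to 49.5) of WT macrophages. Cells with under 5 were 3.65% of FDPS-knockout and 33.3% of WT macrophages.

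Over single macrophages, the counts of genes were correlated with the summed members. Only the most extreme genes were listed, and how many passed the rule below in the FDPS-knockout library was not counted. By the rule of a Spearman correlation over 0.3 in thinned cells, the genes in the FDPS-knockout library included Lyz2 (lysozyme, 0.472), C1qb (0.365), Fth1 (ferritin heavy chain, 0.358) and Tpt1 (0.355), over 493 cells that share 1 library. No gene passed 0.3 in the 2644 WT macrophages, where Cd52 was highest at 0.270. Ciita against the other 9 members gave 0.048 in FDPS-knockout and 0.224 in WT macrophages. Ciita has few UMIs per thinned cell, and so weak a correlation is no finding.

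**Figure D4:**
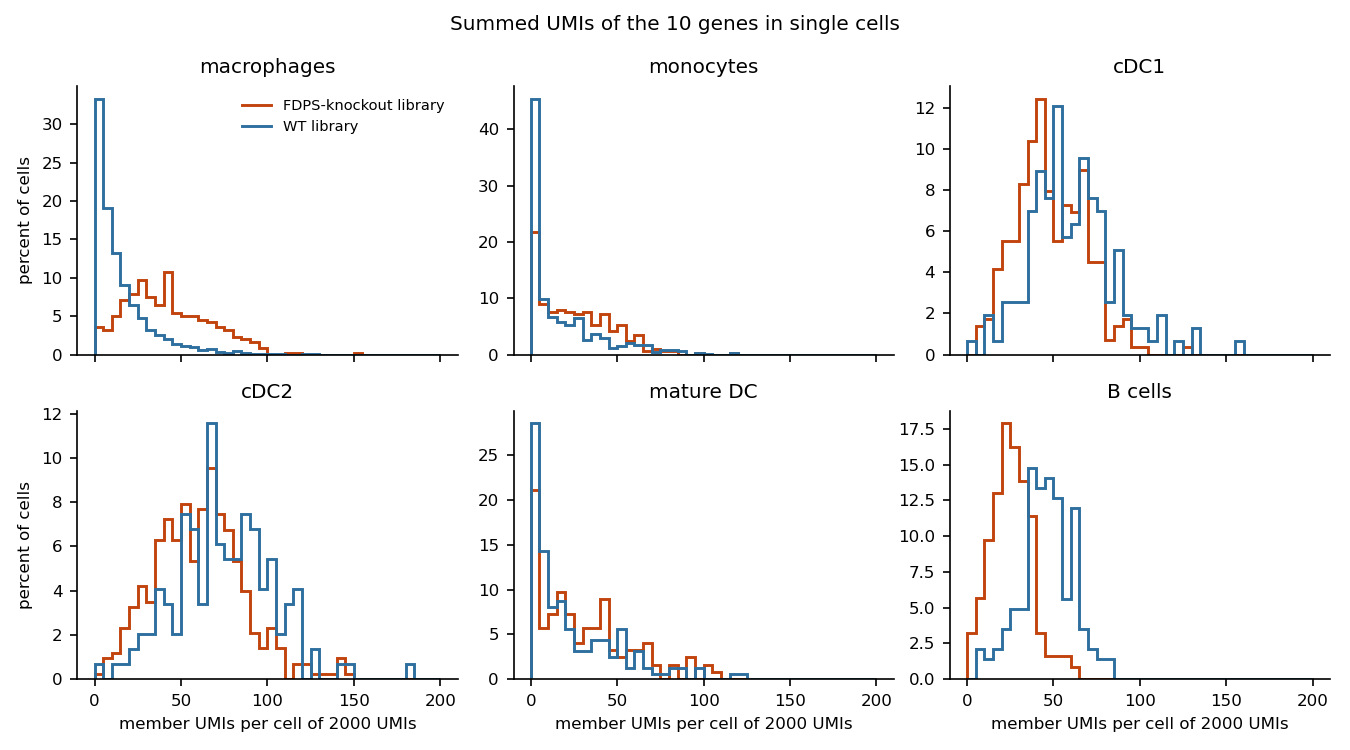
Percent of cells (vertical axis) by summed UMIs of the 10 genes in cells thinned to 2000 UMIs (horizontal axis, bins of 5), for 6 classes and both libraries. WT macrophages and monocytes pile up in the bin from 0 to 4 UMIs (33.3% and 45.4% of cells), whereas in B cells the FDPS-knockout library lies to the left, with medians of 25 and 45.

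Monocytes showed a smaller difference. The largest log2 ratio was that of H2-DMb2 (1.98), which is read below with the Retnla cells, and the next was that of Ciita. Ciita was at 345 CPM (326 to 364) in FDPS-knockout and 147 CPM (140.2 to 155) in WT monocytes, a log2 ratio of 1.20. H2-Aa was at 2553 CPM in FDPS-knockout and 1741 CPM in WT monocytes (0.55), which is within 1.5-fold. H2-Ab1 (2682 and 1692 CPM, 0.66) and H2-Eb1 (2170.1 and 1359 CPM, 0.67) were just past it, and Cd74 (5852 and 4415 CPM, 0.41) was not. H2-DMa (465 CPM in FDPS-knockout and 340.3 in WT) and H2-DMb1 (366 and 313) also stayed within it.

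Of the 8 members compared in monocytes, 4 were past 1.5-fold higher and 0 lower, with 17.7% of 7833 genes higher and 9.03% lower. The members' median log2 ratio was 0.61, against 0.14 over all genes. With scaling by the median gene's ratio (median-ratio scaling) the count was 2, and 47.4% of the calls over all genes were higher in place of 66.2%. Thinned cells had a median of 22 member UMIs in FDPS-knockout and 7 in WT monocytes, with 69.3% and 44.7% of cells at 10 or more. Cluster 16, led by Adgre4, Arhgef37 and Ace, held 57.0% of FDPS-knockout and 11.3% of WT monocytes, and cluster 5, led by Vcan, Chil3 and Hp, 8.28% and 51.8%. Ciita was at 453 CPM in FDPS-knockout and 266 CPM in WT monocytes of cluster 16, and at 177 and 134 CPM in those of cluster 5. H2-Aa was at 1906 and 1276 CPM in cluster 16 and at 2029 and 1223 CPM in cluster 5, FDPS-knockout before WT. By cluster the libraries overlapped, since WT monocytes of cluster 31 (115 cells) had 3486 CPM of H2-Aa. FDPS-knockout monocytes of clusters 4 and 17 had 4688 and 3148 CPM, and those clusters held under 20 WT monocytes.

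H2-DMb2, the less common DM beta chain of these cells, was highest in a part of the cells with Retnla. In monocytes it was at 40.9 CPM in the FDPS-knockout library (156 UMIs) and 6.65 CPM in the WT library (72 UMIs). The 69 FDPS-knockout monocytes with Retnla had 144 CPM (121 to 169), and the other 233 had 3.22 CPM (1.47 to 6.11). The log2 ratio of H2-DMb2 in monocytes was 1.98 with all cells and -0.50 without the Retnla cells, and the count of members past 1.5-fold higher was then 1. In macrophages of the FDPS-knockout library it was at 61.3 CPM with Retnla and 15.3 CPM without, against 3.47 CPM in WT macrophages without. Its level did not go with that of Retnla in every cluster. The FDPS-knockout macrophages of cluster 17 had 38795 CPM of Retnla and 86.2 CPM of H2-DMb2, and those of cluster 19 had 3518 CPM of Retnla and 4.93 CPM of H2-DMb2. The FDPS-knockout macrophages of cluster 16, with 112 CPM of Retnla, had 22.5 CPM of H2-DMb2.

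Its share among DM beta chain UMIs was also higher with Retnla than without. The share compares transcripts of 1404 (H2-DMb1) and 1483 bases (H2-DMb2). H2-DMb2 was 9.72% (8.55 to 10.996) of the H2-DMb1 and H2-DMb2 UMIs in FDPS-knockout and 1.87% (1.63 to 2.13) in WT macrophages. In FDPS-knockout macrophages it was 16.03% with Retnla and 4.64% without, and in FDPS-knockout monocytes 22.6% and 0.996%. The largest group of Retnla cells was ungated, with 568 cells in the FDPS-knockout library, where H2-DMb2 was at 196 CPM and 31.8% of the beta chain UMIs. Those cells had 2968 CPM of H2-Aa, 202 CPM of Ciita and 2.64 CPM of H2-Oa. In cDC2 as a whole H2-Oa was at 142.5 CPM in the FDPS-knockout and 161 CPM in the WT library. The 63 FDPS-knockout cDC2 with Retnla had 241 CPM of H2-DMb2 and only 10.3 CPM of H2-Oa. The other 378 had 189 CPM of H2-DMb2 and 161 CPM of H2-Oa. In the WT library 3 ungated cells had Retnla past the cut, and no comparison could be made.

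Across classes the share of H2-DMb2 rose in an order that both libraries kept. It was 14.4% in FDPS-knockout and 13.6% in WT cDC1, and 29.1% (27.9 to 30.3) in FDPS-knockout and 32.7% (31.0 to 34.5) in WT cDC2. Mature DCs had 58.5% (52.9 to 63.9) in the FDPS-knockout and 68.8% (62.9 to 74.2) in the WT library. B cells had 66.5% (62.0 to 70.7) and 79.3% (75.6 to 82.6), again FDPS-knockout before WT. The intervals of macrophages and monocytes overlapped within each library, as did those of mature DCs and B cells in the FDPS-knockout library.

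**Figure D5:**
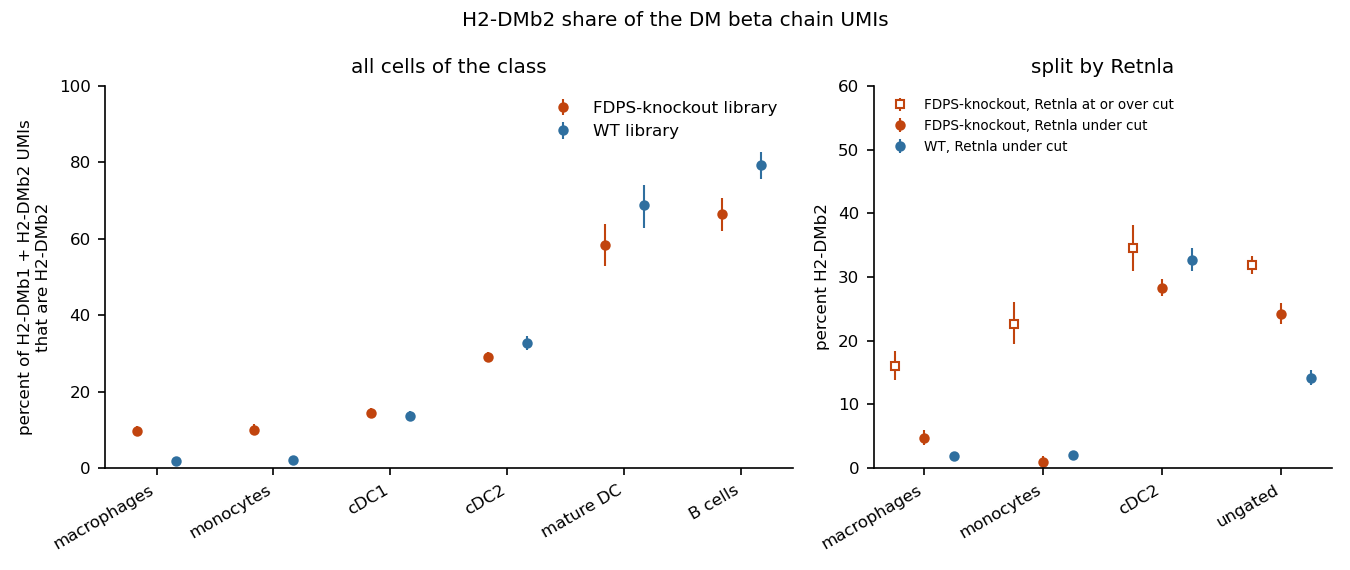
Percent of H2-DMb1 plus H2-DMb2 UMIs that are H2-DMb2, with 95% Clopper-Pearson intervals, by class and library (left) and with the cells split at 3 Retnla UMIs per 10000 (right). In monocytes the FDPS-knockout cells over the cut are at 22.6% and those under it at 0.996%, next to 2.08% in WT cells under it.

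In cDC1 and cDC2 most members were within 1.5-fold, and H2-Aa was highest in cDC2 among the compared classes of both libraries. H2-Aa was at 6018 CPM (5964 to 6072) in FDPS-knockout and 7371 CPM (7274 to 7468) in WT cDC2, and at 4805 CPM (4751 to 4859) in FDPS-knockout and 6101 CPM (6021 to 6183) in WT cDC1. The log2 ratios were -0.29 in cDC2 and -0.34 in cDC1. Cd74 was at 12133 CPM in FDPS-knockout and 13946 CPM in WT cDC2 (-0.20). Ciita went the other way in cDC2, with 822 CPM (803 to 843) in FDPS-knockout and 645 CPM (617 to 674) in WT cells (0.35), and was alike in cDC1 with 673 CPM (653 to 694) and 689.7 CPM (663 to 718). None of these passed 1.5-fold.

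The members past 1.5-fold lower in cDC1 and cDC2 were DM genes. H2-DMa was at 419 CPM in FDPS-knockout and 654 CPM in WT cDC1 (log2 ratio -0.64), past 1.5-fold, with H2-DMb1 at 458 and 668 CPM (-0.54), within it. H2-DMb2 was at 195 CPM in FDPS-knockout and 305 CPM in WT cDC2 (-0.63), past 1.5-fold. Of the H2-DO chains, H2-Oa was at 51.9 CPM in FDPS-knockout and 72.0 CPM in WT cDC1 (-0.44) and at 142.5 and 161 CPM in cDC2 (-0.17), and H2-Ob was at 110.3 CPM in FDPS-knockout and 99.2 CPM in WT cDC1 and at 88.1 and 79.1 CPM in cDC2. There were 17.0 H2-DO UMIs per 100 H2-DM UMIs in FDPS-knockout and 12.0 in WT cDC1, and 18.1 and 13.5 in cDC2. H2-DMa overlaps Brd2 on the other strand by 3094 bases, and Brd2 was at 129.7 CPM in FDPS-knockout and 132 CPM in WT cDC1.

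In cDC1 1 of 10 members was past 1.5-fold lower and 0 higher, with 5.88% of 8268 genes lower and 11% higher. In cDC2 it was likewise 1 lower and 0 higher, with 7.65% of 8296 genes lower and 15% higher. The members' median log2 ratio was -0.39 in cDC1 and -0.25 in cDC2, against 0.09 and 0.10 over all genes. Genes of the shortest span group had a median of -0.26 in both classes. H2-Aa, H2-Ab1, H2-Eb1 and Cd74 were in that group, with log2 ratios of -0.40 to -0.33 in cDC1 and -0.29 to -0.20 in cDC2. The part of span in these ratios was not tested. Both counts of 1 ran from 0 to 2 over the alternatives. With median-ratio scaling, 45.2% of all calls in cDC1 were higher in place of 65.2%, and 47.0% in cDC2 in place of 66.3%. Thinned cells had a median of 45 member UMIs in FDPS-knockout and 57 in WT cDC1, and 60 and 71 in cDC2, and at least 98.6% of cells had 10 or more in each of these groups.

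Mature DCs, which are known to shut down class II transcription while keeping the protein on the surface, had lower Ciita than cDC1 and cDC2 in both libraries. Ciita was at 266 CPM (243 to 291) in FDPS-knockout and 76.7 CPM (66.0 to 88.7) in WT mature DCs, a log2 ratio of 1.73 (1.49 to 1.96). H2-Ab1 was at 2931 and 1562 CPM (0.91), whereas its partner H2-Aa was at 3699 and 3950 CPM (-0.09) in the FDPS-knockout and WT libraries. The I-A chains therefore did not move together in this class, unlike in macrophages. H2-DMb1 (74.3 CPM in FDPS-knockout and 35.8 in WT, 0.96) and H2-Ob (58.9 and 28.2 CPM, 0.94) were also past 1.5-fold higher. H2-Eb1 (3849 and 3393 CPM, 0.18) and Cd74 (7162 and 5722 CPM, 0.32) were within it.

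Of 10 members in mature DCs, 4 were past 1.5-fold higher and 0 lower, with 21% of 7539 genes higher and 14% lower. The members' median was 0.35 and that of all genes 0.13. With median-ratio scaling 44.8% of all calls were higher in place of 59.9%. Single mature DCs were spread widely: 21.1% of FDPS-knockout and 28.6% of WT cells had under 5 member UMIs of 2000, and the highest 10% of cells had at least 67 and 60. The cDC1 markers summed to 619 CPM in FDPS-knockout and 171 CPM in WT mature DCs, with 0 of 8 at 0 in either library, and their part in the result was not tested.

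In B cells the difference ran the other way. H2-Aa was at 2087 CPM (2007 to 2170) in FDPS-knockout and 3643 CPM (3523 to 3766) in WT B cells (log2 ratio -0.80), and Cd74 at 6565 and 11000 CPM (-0.74). H2-Eb1 was at 1620 CPM in FDPS-knockout and 2605 CPM in WT B cells (-0.68), and H2-Ab1 at 1955 and 2932 CPM (-0.58), just within 1.5-fold. Ciita was at 242 CPM (215 to 271) in FDPS-knockout and 380 CPM (342 to 421) in WT B cells (-0.64). It was past 1.5-fold lower under 7 of 13 alternatives, with log2 ratios from -0.81 to -0.14. H2-Oa, at 113 CPM in FDPS-knockout and 219.6 CPM in WT B cells, had the lowest log2 ratio (-0.93). H2-DMb2 (-0.77) and H2-DMa (-0.59) were also past 1.5-fold lower, whereas H2-DMb1 (131 and 116 CPM, 0.17) and H2-Ob (385 and 471 CPM, -0.29) were not.

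Of 10 members in B cells, 7 were past 1.5-fold lower and 0 higher, with 9.22% of 8228 genes lower and 15.5% higher. The members' median was -0.66 and that of all genes 0.10, and with median-ratio scaling 46.9% of all calls were higher in place of 62.6%. The median thinned B cell had 25 member UMIs in the FDPS-knockout library and 45 in the WT library, and 68.3% and 94.4% of cells had 20 or more. Counted as UMIs per cell without scaling, 0 members were past 1.5-fold lower and 1 was higher, since FDPS-knockout B cells had a median of 8187 UMIs and WT B cells 5986. On that scale the median log2 ratio of all genes was 0.54, and 96.5% of calls were higher.

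The FDPS-knockout B cell gate also held cells with plasma cell transcripts, which are known to lack Ciita. Prdm1, which represses Ciita in plasma cells, had UMIs in 11 of 130 FDPS-knockout and 2 of 144 WT B cells. Jchain had 1645 UMIs in 7 FDPS-knockout cells, 923 of them in 1 cell, and 12 UMIs in 4 WT cells. Without the cells with a Prdm1 UMI, 7 members were past 1.5-fold lower, and with no doublets removed 4 were. Of the genes of macrophage states, 6 of 7 were higher in FDPS-knockout B cells (Retnla, Il1b, Ly6c2, Ptgs2, Mki67 and Top2a) and Gpnmb lower, but 268 of the 273 Il1b UMIs were in 1 cell. In cDC2 3 of 8 were higher (Retnla, Cd163 and Ptgs2) and 2 lower (Spp1 and Il1b). Monocyte markers summed to 1448 CPM in FDPS-knockout and 1015 CPM in WT B cells, with 2 of 10 at 0 in each, and their part in the result was not tested.

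Plasmacytoid DCs numbered 160 in the FDPS-knockout and 32 in the WT library, too few for a comparison. In the FDPS-knockout library they had 1237 CPM of H2-Aa (1196 to 1280), 3188 CPM of Cd74 and 69.4 CPM of Ciita (59.8 to 80.0). Among the 6 compared classes and these cells of the FDPS-knockout library, the order of H2-Aa from high to low was cDC2, macrophages, cDC1, mature DCs, monocytes, B cells and plasmacytoid DCs. The intervals of macrophages and cDC1 overlapped, and those of other neighbours did not. In the WT library the order of the 6 classes was cDC2, cDC1, mature DCs, B cells, monocytes and macrophages, with no overlap between neighbours. Macrophages thus stood next to cDC1 in the FDPS-knockout library and lowest of the 6 classes in the WT library.

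The lists of related genes are read against all genes compared, of which 17.2% were past 1.5-fold higher and 16.7% lower in macrophages, 15% and 7.65% in cDC2, 21% and 14% in mature DCs, and 15.5% and 9.22% in B cells. Genes that act on class II molecules after transcription did not follow the members in macrophages. Of 12 genes of peptide processing and class II traffic, 1 was past 1.5-fold higher and 7 lower, with a median log2 ratio of -0.70. The lower ones were the proteases Ctsl (171 CPM in FDPS-knockout and 693 in WT, -1.98), Lgmn (-1.14), Ctsd (-0.93) and Ctsb (-0.75), the thiol reductase Ifi30 (-0.64), and the tetraspanins Cd63 (-1.99) and Cd9 (-1.13). March1, the ubiquitin ligase that sends class II molecules for degradation, was at 341 CPM in FDPS-knockout and 196 CPM in WT macrophages (0.78). Ctss, the protease that makes the last cuts of the invariant chain, was at 2462 and 2402 CPM (0.04). In cDC2 3 of 11 were lower (Ctsl, Lgmn, Cd63) and 0 higher, and in B cells 2 were higher (March1, Cd9) and 3 lower (Ctsb, Ctsd, Cd63) of 10.

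The measured factors that Ciita joins on class II promoters were within 1.5-fold or were higher in macrophages. Of 9 measured, 4 were higher: Kat2b (0.95), Ep300 (0.76), Crebbp (0.75) and Creb1 (0.63), with a median of 0.32. The RFX subunits Rfx5 (9.47 CPM in FDPS-knockout and 5.02 in WT macrophages) and Rfxank (7.82 and 9.57 CPM) were under 10 CPM and not compared. The RFX subunit Rfxap was at 14.0 CPM in FDPS-knockout and 21.4 CPM in WT macrophages (-0.47), and the NF-Y subunits Nfya, Nfyb and Nfyc had log2 ratios of 0.18, -0.23 and 0.32. Of 15 genes known to act upstream of Ciita, 3 were higher and 3 lower, near the background share in both directions. Ifngr1, an interferon-gamma receptor chain, was at 168 CPM in FDPS-knockout and 74.8 CPM in WT macrophages (1.11), and Irf4 (26.0 and 1.62 CPM, 2.23) and Irf2 (0.77) were also higher. Socs1, an inhibitor of that receptor's signal (22.0 and 61.1 CPM, -1.29), Irf8 (-0.71) and Ezh2 (-0.67) were lower. Irf1 (0.06), a factor through which interferon-gamma reaches Ciita, was within 1.5-fold. In cDC2 1 of 15 upstream genes was higher (Irf4, 0.60) and 2 lower (Irf8, -0.60, and Socs1, -1.55), and in B cells 2 of 16 were higher (Prdm1, 2.17, and Jak2, 0.78) and 1 lower (Socs1, -0.66). In cDC2 2 of 10 promoter factors were higher (Crebbp and Kat2b) and 0 lower, and in B cells 2 were higher (Rfxap and Nfya) and 1 lower (Rfx5, 17.2 CPM in FDPS-knockout and 34.5 in WT).

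The interferon-gamma-induced genes were counted in the same classes. In macrophages 1 of 15 was higher (Nlrc5, the class I counterpart of Ciita, 0.61) and 4 were lower, which were Gbp2 (131 CPM in FDPS-knockout and 312 in WT, -1.22), Socs1, Psmb10 (-0.77) and Cxcl10 (-0.72), with a median of -0.25. In cDC2 0 of 15 were higher and 8 lower, among them Cxcl10 (-1.29), Cxcl9 (-0.93), Gbp5 (-0.93), Gbp7 (-0.86), Gbp2 (-0.86) and Iigp1 (-0.78), with a median of -0.62. In mature DCs 5 of 15 were higher and 1 lower, with a median of 0.31. In B cells 5 of 15 were higher, among them Cxcl10 (1.81), Gbp5 (1.16), Iigp1 (0.94), Nlrc5 (0.90) and Gbp4 (0.83), and 1 was lower (Socs1, -0.66). Of the other genes in the class II region, 0 of 5 were higher and 2 lower in macrophages, 0 of 5 higher and 1 lower in cDC2, and 1 of 6 higher and 2 lower in B cells. Psmb8, an immunoproteasome gene, was lower in all 3 (-1.06, -0.91 and -0.59), and Psmb9 in macrophages (-0.59).

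Costimulatory genes, whose products signal to T cells alongside class II, were read in the same way. In macrophages 3 of 6 were higher and 1 lower: Cd80 (51.7 CPM in FDPS-knockout and 14.9 in WT, 1.51), Cd86 (0.77) and Icosl (0.66) were the higher ones, and Cd274, which encodes the inhibitory ligand PD-L1, the lower one (261 and 441 CPM, -0.75). In cDC2 Pdcd1lg2 (-1.73), Cd274 (-1.52) and Cd86 (-0.67) were lower. In B cells Cd80 (2.32) and Cd86 (0.94) were higher. H2-Eb2, a class II gene next to H2-Eb1, was at 68.7 CPM in FDPS-knockout and 142 CPM in WT B cells, and Tap1 was higher there (0.96). Of the receptors of class II molecules, Cd4, Lag3 and Fcrl6, 0 of 3 reached 10 CPM in macrophages or B cells.

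Over 27 sums of a class in a library, log2 levels of 9173 genes were correlated with the mean of H2-Aa, H2-Ab1, H2-Eb1 and Cd74. The sums share libraries and depth, and the values of Pearson's r are a description. The 10 genes outside the members with the highest r were Ifi30 (0.957), Fgd2 (0.954), Plekho1 (0.949), Ly86 (0.942), Prcp (0.939), Pkib (0.931), Rassf4 (0.931), Cnpy3 (0.926), Gm20513 (0.925) and Gm15987 (0.923). Gm20513 is annotated on the other strand of H2-Eb1 with an overlap of 2204 bases, and it was at 26.9 CPM in FDPS-knockout and 2.31 CPM in WT macrophages. Without strand its reads cannot be told from those of H2-Eb1. Among the members themselves Ciita had an r of 0.968, H2-DMa 0.937, H2-DMb1 0.929, H2-DMb2 0.878, H2-Ob 0.707 and H2-Oa 0.663. Ifi30, the most alike by level over classes, was lower in FDPS-knockout macrophages (453 CPM, against 707 CPM in WT), where the class II chains were higher.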

How the data were processed

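Whole-number UMI counts per gene and barcode were deposited by the authors for 2 libraries, with Cell Ranger 7.2.0 named in the file headers and mm10 as the genome in the submitters' processing notes. The annotation behind the counts, the library kit and the use of strand are not given in the sources used here. Positions of genes came from GENCODE vM21 on GRCm38, which held 32158 of the 32285 gene identifiers. The gene members, gene lists and markers were chosen with earlier results of these data known.

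Barcodes with at least 200 genes and under 10% mitochondrial counts were kept (8697 FDPS-knockout and 9415 WT). Scrublet's own threshold (scanpy 1.11.5) marked 0 FDPS-knockout and 144 WT cells, so the highest scores were removed at 0.8% per 1000 barcodes (635 and 820 cells). A cell took the type whose markers had the highest mean of log counts per 10000, each divided by its 99.5th percentile and limited to 1, with a score of at least 0.25 and a lead of 0.05. Classes needed 100 cells in each library for a comparison and 50 for a level. The UMIs of each class in each library were added up and given as CPM. Differences are log2 ratios of CPM plus a pseudocount of 5, which understate changes of low genes, for genes whose mean over both libraries was at least 10 CPM, and a fold of 1.5 was used to count. Intervals of log2 ratios come from the Poisson error of the sums and, like all intervals, cover counting error only. Cells are not replicates, and cells of the 3 tumours in a library could not be separated, so no p-value was computed.

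All 10 members are named, with list genes past 1.5-fold in macrophages, cDC2 or B cells, the 10 genes most like the class II chains over class sums, and up to 5 genes per library with a Spearman correlation over 0.3 in single macrophages, of which some results are not reported here. Genes of macrophage states were used to describe cells, and the cuts of 3 UMIs per 10000 (Retnla, Ccr2, and Spp1 or Arg1) were chosen after seeing the data, as were the promoter motifs, the alternative without Prdm1 cells and that of UMIs per cell. Alternatives tried were another pseudocount, median-ratio scaling, no filter on low genes, no doublet removal, a mitochondrial limit of 5%, stricter and looser gates, Leiden clusters made without the members, subtraction of estimated free RNA, equal weight per cell and thinning to 2000 UMIs. The ratio code was tested on simulated data. Python 3.11.15, numpy 2.4.6 and scipy 1.17.1 were used.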

Additional observations from a re-analysis of the deposited data

Results flagged for a closer look

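Of the members higher in macrophages, 6 were past 1.5-fold lower in another class. Of all genes compared, 9.22% were past 1.5-fold lower in B cells, 5.88% in cDC1 and 7.65% in cDC2. How many of the genes higher in macrophages were among them was not counted. The difference between the log2 ratios (FDPS-knockout over WT) of the classes was not tested, since each class has 1 library per group. For H2-Aa the log2 ratio in macrophages minus that in B cells was 2.59, for H2-Eb1 2.52, for Cd74 2.17 and for Ciita 3.12. For H2-DMa it was 1.45 against B cells and 1.49 against cDC1. For H2-DMb2 it was 2.96 against B cells and 2.82 against cDC2, and this gene's ratio in macrophages is the one that moved most with the choice of cells, since it was 0.44 with clusters in place of the gate.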

How the results depend on the processing

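No paired analysis was possible because each group has 1 library. H2-Aa, H2-Ab1, H2-Eb1, Cd74 and Ciita stayed past 1.5-fold higher in macrophages under all 15 alternatives tried, with log2 ratios of 0.89 to 1.94 for H2-Aa and 1.30 to 2.79 for Ciita. In monocytes and mature DCs Ciita stayed past it under all 14 and all 12. Of the counts, 138 values stayed within 1.5 times the main one and 20 did not. Of the members' log2 ratios, 426 stayed within the counting interval, 304 moved outside it and 2 reversed. A reversal is a change of sign and was counted only for members past 1.5-fold in the main comparison. Some members within 1.5-fold also changed sign, such as H2-Ob in B cells (-0.52 to 0.21) and H2-Oa in cDC2 (-0.57 to 0.12). Members higher in macrophages were 5 with clusters in place of the gate. In macrophages H2-DMa stayed past 1.5-fold higher under 11 of the 15 alternatives, H2-DMb1 under 12 and H2-DMb2 under 14. The log2 ratio of H2-DMa there ran from 0.07 to 0.90. Members higher in monocytes were 2 with median-ratio scaling and 1 without Retnla cells, where H2-DMb2 reversed to -0.50. H2-DMb1 in macrophages reversed to -0.041 as UMIs per cell. Members lower in cDC1 were 2 with median-ratio scaling, a looser gate, thinned cells or UMIs per cell, and 0 with no doublets removed or cells weighted equally. Members lower in cDC2 were 2 with median-ratio scaling, cells weighted equally, thinned cells or UMIs per cell, and 0 with a stricter gate, a looser gate or clusters. Members lower in mature DCs were 1 with thinned cells. Members lower in B cells were 4 with no doublets removed and 0 as UMIs per cell, where 1 was higher. The cause was not tested. Median-ratio scaling moved the median log2 ratio of all genes by over 0.1 in monocytes, cDC2, mature DCs and B cells, where it was 0.14, 0.10, 0.13 and 0.10 before and within 0.01 of 0 after, and UMIs per cell moved it to -0.66 in macrophages and 0.54 in B cells. Plasmacytoid DCs reached 100 cells in both libraries under no alternative, so theirs were not run. H2-Oa and H2-Ob in macrophages and monocytes were too low for a comparison at this depth.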
